A study of Mus musculus with 18 samples.

Results

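The histone genes of TC1 cells were followed through their mRNA, their ribosome footprints and the ratio of the 2. They were the genes whose symbols begin with Hist1h, Hist2h, Hist3h or Hist4h, together with H2afx, H2afz, H3f3a and H3f3b, in the sgNAT10 mRNA and Ribo-seq tables, and the same gene identifiers in the sgMyc table. That gave 65 genes of 17606, of which 61 are replication-dependent (5 of H1, 17 of H2A, 15 of H2B, 11 of H3 and 13 of H4) and 4 are variants. Of these, 63 had values in sgNAT10 mRNA, 60 in Ribo-seq and 62 in the sgMyc set. On GRCm38.p6, 50 lie on chromosome 13, 9 on chromosome 3, 2 on chromosome 11 and 1 each on chromosomes 1, 6 and 9, and 1 (Hist1h2ap) had no unambiguous position. TC1 is a mouse line that the labels call fibrosarcoma. Unedited cells (WT) were compared with cells carrying a guide RNA against Nat10, the enzyme that places N4-acetylcytidine on RNA (sgNAT10), in 2 and 2 mRNA libraries and 2 and 2 Ribo-seq libraries. WT cells of a second set were compared with cells carrying a guide against Myc, a transcription factor that drives growth (sgMyc), in 3 and 3 mRNA libraries. Acetylated RNA was precipitated in 1 sample of WT and 1 of sgNAT10, each with 1 input. All groups are the same line with no further agent named, no group carried a control guide, and the labels do not say whether an edited line is 1 clone or whether replicates were separate cultures.

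Replication-dependent histone genes sit in clusters, have no introns, and are transcribed in S phase, when new DNA has to be packed into nucleosomes. Their mRNAs end in a stem-loop instead of a poly(A) tail, and the stem-loop binding protein Slbp carries them through processing and translation. Variant histones such as H2A.Z (H2afz) and H3.3 (H3f3a and H3f3b) come from genes outside the clusters, with introns and polyadenylated mRNAs, and are made through the whole cell cycle. H2A.X (H2afx), whose phosphorylated form marks DNA breaks, stands between them, since its mRNA can end in the stem-loop or in a poly(A) tail. Some replication-dependent genes are also known to give polyadenylated transcripts, above all in cells that leave the cell cycle.

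Values are FPKM, fragments per kilobase of gene, scaled to the mapped fragments of the library, which adjusts for the gene length used by the authors. For some copies that length is far from RefSeq's. In WT replicate 1, Hist1h1d had 2861 recovered footprint reads and 122 FPKM, and Hist1h1b 1531 reads and 654 FPKM. Their RefSeq lengths are 776 and 794 bases. Ranks of copies by FPKM therefore depend on the gene model, whereas comparisons between genotypes within a gene do not. The mRNA libraries of the sgNAT10 set held 11680381 to 15266658 reads, the Ribo-seq libraries 1583591 to 3293446 (the lowest in sgNAT10 replicate 2), and the sgMyc set 51875052 to 65768024. Nat10 mRNA read 5.36 and 5.3 FPKM in WT and 3.59 and 3.95 in sgNAT10, and Myc in the second set read 64.8, 61.6 and 70.8 FPKM in WT and 21.1, 20.9 and 34.1 in sgMyc, so sgMyc replicate 3 held more Myc mRNA than the other two. That library also stood apart in many histone genes, and counts of that set are given with and without it. Vim, Fn1 and Col1a2 were present in every library while Col1a1 was at most 0.58 FPKM, and the other lists summed to at most 4.14 FPKM (epithelial), 0.033 (leukocyte), 0.568 (endothelial) and 7.2 (macrophage). The macrophage sum, from Cd68 and Csf1r, was 2.92 to 3.85 FPKM in the sgNAT10 mRNA set, 0 to 4.04 in Ribo-seq, and 2.97 to 3.97 in WT and 2.44 to 7.2 in sgMyc of the second set. Many replication-dependent genes of 1 class are near-identical copies, and how reads that match several copies were counted is not given in the sources used here. The split of reads among copies is therefore uncertain for every such gene named, and copies of 1 class are not independent measurements. The share of cells in S phase and the amount of histone mRNA per cell cannot be told apart in these bulk samples.

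Footprints of the replication-dependent genes were abundant while their mRNA was scarce. In WT the 59 replication-dependent genes of the mRNA table had a median of 1.81 FPKM of mRNA (0.0709 to 40.3), and 55 of them were under 10 FPKM. The 56 in the Ribo-seq table had a median of 126 FPKM of footprints (0.344 to 1542), and 33 were above 100 FPKM. Over all genes present in both tables with a mean of at least 1 FPKM in the assay, the medians were 7.47 FPKM of mRNA and 7.94 FPKM of footprints. The histone medians carry no such filter, so the sets are not matched. Of 54 replication-dependent genes with both values, 52 had more FPKM of footprints than of mRNA in WT. Over the genes with at least 1 FPKM in both assays, the footprint to mRNA ratio in WT had a median of 62.4 in 42 replication-dependent genes, 0.655 in the 4 variants and 1.15 in all 9197 genes. Of the 50 highest ratios in the whole table, 37 belonged to histone genes. The mRNA values rested on few reads: 45 of 59 replication-dependent genes had fewer than 100 reads in the WT mRNA libraries together, against 11 of 56 in the WT Ribo-seq libraries.

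**Figure D1:**
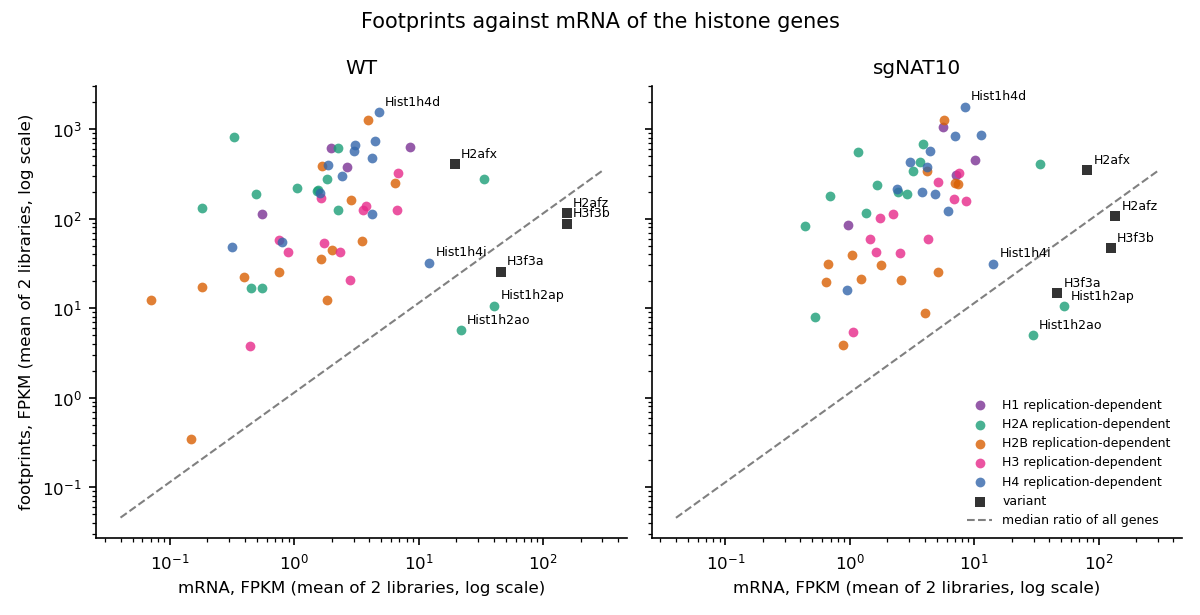
Mean footprint FPKM (vertical, log scale) against mean mRNA FPKM (horizontal, log scale) of each histone gene with both values above 0, in WT (left) and sgNAT10 (right), with 2 libraries of each assay per genotype. Circles are replication-dependent genes by class, squares are variants, and the dashed line is the median ratio of all genes (1.15 in WT and 1.14 in sgNAT10); most circles lie far above the line, whereas H2afz, H3f3a, H3f3b, Hist1h2ao and Hist1h2ap lie below it.

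Members of a class were ranked by FPKM, and the leading one held 26.1% (Hist2h2ab of H2A) to 55.2% (Hist2h2bb of H2B) of its summed WT footprints. Among H4 genes, whose product pairs with H3 at the core of the nucleosome, Hist1h4d had the most footprints, at 1635 and 1448 FPKM in WT and 1740.5 and 1833 in sgNAT10, beside mRNA of 5.13 and 4.4 FPKM in WT and 7.55 and 9.26 in sgNAT10. Its mRNA was higher in both sgNAT10 libraries than in either WT library, and its footprints also stood slightly higher, by a log2 fold change of 0.21 that did not pass the test (adjusted p = 0.314). Among H2B genes, Hist2h2bb led with 1324 and 1193 FPKM of footprints in WT and 1179 and 1328 in sgNAT10, values that overlapped between the genotypes. Among H2A genes, Hist2h2ab led with 890.1 and 734 FPKM of footprints in WT and 532 and 568 in sgNAT10. Both edited libraries of Hist2h2ab lay below both WT libraries, but the difference was not called with limma (log2 fold change -0.56 ± 0.13 (SE), adjusted p = 0.0892). The authors' deposited table listed it as lower (adjusted p = 0.00354), and its mRNA never exceeded 1.68 FPKM. The H3 class was led by Hist1h3c, with overlapping footprints of 377 and 268 FPKM in WT and 298 and 352 in sgNAT10. In recovered WT reads Hist1h3f was above it, at 808 and 547 against 748 and 518. Linker histones (H1), which bind the DNA between nucleosomes, were led by Hist1h1b, which was called, and by Hist1h1e. Footprints of Hist1h1e read 665 and 585 FPKM in WT and 458 and 453 in sgNAT10, lower in the edited libraries without passing the limma test (adjusted p = 0.106). It was called with edgeR on recovered reads, and the authors' deposited table listed it as lower (adjusted p = 6.61e-05).

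A few replication-dependent genes had much mRNA and few footprints in the sgNAT10 set. Hist1h2ap, an H2A gene, read 41.2 and 39.4 FPKM of mRNA in WT and 52 and 53.6 in sgNAT10, the highest mRNA of the replication-dependent genes, yet 7.24 and 14.2 FPKM of footprints in WT and 19.8 and 1.2 in sgNAT10. Another H2A gene, Hist1h2ao, read 23.1 and 20.3 FPKM of mRNA in WT and 28.3 and 30.6 in sgNAT10 and 5.29 and 6.11 FPKM of footprints in WT and 6.42 and 3.62 in sgNAT10. Their WT ratios of 0.266 and 0.262 were the lowest of the histone genes. High mRNA of these 2 genes was not seen in WT of the sgMyc set, which was normalized separately. There Hist1h2ap read 1.23, 0.552 and 1.5 FPKM and Hist1h2ao 0.728, 0.808 and 1.44. Hist1h4i, with the most mRNA of the H4 genes at 11.1 and 13.1 FPKM in WT and 14.5 and 14.1 in sgNAT10, had a WT ratio of 2.67. The genes with the most mRNA in the remaining classes were Hist1h2bj for H2B, at 6.8 and 6.12 FPKM in WT and 7.02 and 7.9 in sgNAT10, and Hist1h3i for H3, at 6 and 7.42 FPKM in WT and 6.35 and 10.9 in sgNAT10. Leaders in mRNA were ranked by the mean of all 4 libraries, and in WT alone Hist1h3c stood slightly above Hist1h3i, at 7.39 and 6.14 FPKM. Hist1h1e led the H1 genes in mRNA, at 8.99 and 8.07 FPKM in WT and 9.05 and 11.1 in sgNAT10.

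Whether the mRNA libraries were selected for poly(A) tails is not given in the sources used here, and other RNAs without a tail are given beside these ratios. Rnu11, a small nuclear RNA of the minor spliceosome that is not translated, read 0.681 and 0.406 FPKM in WT and 1.3 and 2.78 in sgNAT10 in the mRNA libraries and 4563 and 3024 FPKM in WT and 2769.7 and 4935 in sgNAT10 in the Ribo-seq libraries. Rpph1, the RNA of RNase P, read 0.143 and 0.341 FPKM in WT and 0.364 and 0.777 in sgNAT10 in mRNA and 39.8 and 49 FPKM in WT and 24.6 and 43.6 in sgNAT10 in Ribo-seq. A high value in the Ribo-seq table beside a low one in the mRNA table was therefore also found for some RNAs with no coding sequence, and the part of library selection in the ratios was not tested. In contrast Rn7sk, a nuclear RNA that holds back transcription elongation, read 62.5 and 53.1 FPKM in WT and 92.4 and 166 in sgNAT10 in mRNA and 2.87 and 28.5 FPKM in WT and 31.3 and 61.3 in sgNAT10 in Ribo-seq. The rest of that list with values in both assays went both ways in WT. Rny1 and Rny3 were higher in Ribo-seq, Neat1 was lower, and Scarna2 overlapped. Malat1 was also lower, at 291 and 331 FPKM in WT mRNA and 26.7 and 27.2 in WT Ribo-seq.

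In sgNAT10, mRNA of replication-dependent histones was mostly higher. Of the 63 genes of the table, 46 had a mean of at least 1 FPKM and were tested, 42 of them replication-dependent. Of these 42, 22 rose and 2 fell at an adjusted p under 0.05 (limma on log2(FPKM + 1)), against 33.7% of the 11735 genes tested that rose and 29.6% that fell. Their median log2 fold change was 0.45, beside 0.01 over all genes, and 37 of the 42 were above 0. Some passed the filter through 1 genotype only. Among those that rose, Hist1h4k, Hist1h2bh, Hist1h3b and Hist1h3d had WT means of 0.802, 0.756, 0.748 and 0.896 FPKM. Hist1h2bk, which fell, had an sgNAT10 mean of 0.882 FPKM. Without the filter 25 of 59 replication-dependent genes rose and 2 fell, with 8632 of 17379 genes called in either direction. By class, 2 of 3 H1 genes rose, 5 of 9 H2A, 5 of 9 H2B, 4 of 10 H3 and 6 of 11 H4, and the 2 that fell were Hist1h2bk of H2B and Hist1h4b of H4. Summed over all 59 replication-dependent genes, mRNA was 231 and 215 FPKM in WT and 297 and 344 FPKM in sgNAT10, a ratio of means of 1.44. The sums of the variants, 377 and 372 FPKM in WT and 385 and 391 FPKM in sgNAT10, gave a ratio of 1.04. Since log2(FPKM + 1) was tested, the changes of genes near 1 FPKM are understated.

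The largest rise among the tested replication-dependent genes was in Hist1h4k (log2 fold change 1.97 ± 0.21 (SE), adjusted p = 0.000874). It went from 0.731 and 0.873 FPKM in WT, under the filter, to 4.65 and 7.75 in sgNAT10. The H4 genes Hist1h4f and Hist1h4j followed: Hist1h4f read 4.2 and 4.73 FPKM in WT and 9.2 and 13.6 in sgNAT10 (log2 fold change 1.16 ± 0.17 (SE), adjusted p = 0.003). Hist1h4j read 1.53 and 1.69 FPKM in WT and 4.12 and 5.61 in sgNAT10 (log2 fold change 1.16 ± 0.13 (SE), adjusted p = 0.00107). In all 3 the genotypes were apart, and sgNAT10 replicate 2 was the higher of the edited libraries. Of the 2 that fell, Hist1h2bk read 1.92 and 2.06 FPKM in WT and 0.853 and 0.911 in sgNAT10 (log2 fold change -0.67 ± 0.08 (SE), adjusted p = 0.0012), and Hist1h4b read 4.37 and 4.11 FPKM in WT and 2.63 and 3.43 in sgNAT10 (log2 fold change -0.39 ± 0.11 (SE), adjusted p = 0.026). sgNAT10 replicate 2 was above sgNAT10 replicate 1 in 33 of the 42 tested replication-dependent genes, whereas WT replicate 2 was above WT replicate 1 in 19. Of 9 tested RNAs listed as lacking a poly(A) tail, 4 rose (Rn7sk, Rnu11, Rny3 and Vaultrc5) and 1 fell, beside the same background of 33.7% and 29.6%. The 1 that fell was Neat1, which also has a polyadenylated form. With edgeR on recovered reads, 3 of the list were called. Rn7sk had a log2 fold change of 1.09 ± 0.27 (SE), and Rnu11, Rny1, Rny3 and Rn7sk were also higher in sgNAT10 replicate 2 than in replicate 1. The fibroblast markers summed to 301 and 311 FPKM of mRNA in WT and 543 and 571 in sgNAT10, and in Ribo-seq to 776 and 777 FPKM in WT and 1563 and 1599 in sgNAT10. Vim made up most of the mRNA sums, at 248 and 255 FPKM in WT and 444 and 421 in sgNAT10. Vim, Col1a2 and Fn1 were higher in every edited library. The rest of that list, Pdgfrb, S100a4 and Col1a1, was lower in mRNA of both edited libraries. In footprints S100a4 was higher, while Pdgfrb and Col1a1 overlapped between genotypes. The part of these RNAs and markers in the histone result was not tested. Leaving out sgNAT10 replicate 2 left 20 of the tested histone genes called higher, of 23 with it. The authors' deposited table, for which shares over all genes were not counted, listed 18 histone genes as higher at an adjusted p under 0.05 and 2 as lower. The 2 were the variants H2afz and H3f3b, and that table did not call Hist1h2bk (adjusted p = 0.171) or Hist1h4b (adjusted p = 0.433).

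Among the variants the mRNA changes went both ways, and the largest was in H2afx. Its mRNA read 19.7 and 19.4 FPKM in WT and 83.3 and 78.9 in sgNAT10, and its footprints read 401 and 417 FPKM in WT and 332 and 369 in sgNAT10. Edited libraries held more H2afx mRNA than WT (ratio of means 4.15), with the genotypes far apart, while their footprints lay below WT. The log2 fold change was 2.00 ± 0.04 (SE), adjusted p = 9.09e-06 in mRNA, and -0.22 ± 0.12 (SE), adjusted p = 0.35 in footprints, which did not pass the test. H2afz read 157 and 152 FPKM of mRNA in WT and 134 and 138 in sgNAT10 and fell slightly (log2 fold change -0.19 ± 0.03 (SE), adjusted p = 0.00446), with overlapping footprints of 86.8 and 142 FPKM in WT and 104 and 111 in sgNAT10. H3f3b read 153 and 155 FPKM of mRNA in WT and 122 and 127 in sgNAT10, a fall of log2 fold change -0.30 ± 0.03 (SE), adjusted p = 0.00077. Its footprints were 87.9 and 88.1 FPKM in WT and 42.8 and 51.8 in sgNAT10, below WT in both edited libraries (ratio of means 0.538), with an adjusted p of 0.0597 that missed the threshold. H3f3a encodes the same protein as H3f3b, and its mRNA of 46.5 and 44.3 FPKM in WT and 45.6 and 47.2 in sgNAT10 overlapped between genotypes. Its footprints of 30.4 and 20.8 FPKM in WT and 11.2 and 18.2 in sgNAT10 were lower in the edited libraries without passing the test (adjusted p = 0.254).

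**Figure D2:**
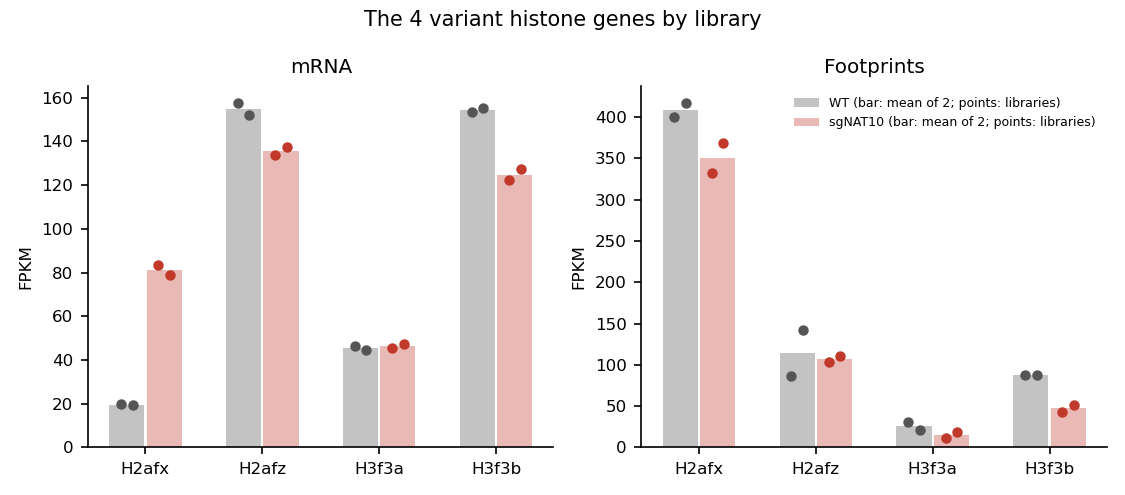
FPKM of the 4 variant histone genes in mRNA (left) and footprints (right). Bars are means of 2 libraries and points are the libraries, grey for WT and red for sgNAT10; H2afx mRNA rises from about 20 to about 81 FPKM while its footprints stay between 332 and 417 FPKM, and H3f3b footprints fall from 88 to between 42.8 and 51.8 FPKM.

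The test of the footprint to mRNA ratio, an interaction of genotype and assay in 1 model, called H2afx lower in sgNAT10 (log2 difference -2.22 ± 0.19 (SE), adjusted p = 0.00608). Its ratio of means went from 20.9 in WT to 4.32 in sgNAT10. It was 1 of 3 genes called lower of 9200 tested (0.0326%), and 0% were called higher with limma, where 745 genes had an unadjusted p under 0.05 and edgeR on recovered reads called 18. Leaving out any of the 4 Ribo-seq libraries lost the call, with adjusted p between 0.0946 (without WT replicate 1) and 0.162 (without sgNAT10 replicate 1), and fitting without a mean-variance trend gave 0.113. The ratio of H3f3b stood at a log2 difference of -0.58 ± 0.19 (SE), of H3f3a at -0.81 ± 0.31 (SE) and of H2afz at 0.14 ± 0.24 (SE), none past the test.

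No replication-dependent gene was called in the ratio, of 42 tested with limma (2 at an unadjusted p under 0.05) and of 54 with edgeR on recovered reads. The median log2 difference of the 42 was −0.45, beside −0.02 over all genes, with 10 of 42 above 0 against 48% of all genes. The lowest were Hist1h2bk at -2.51 ± 0.41 (SE), adjusted p = 0.0974, and Hist1h2bg at -1.62 ± 0.44 (SE), adjusted p = 0.374. The highest were Hist1h3h at 1.18 ± 0.87 (SE), adjusted p = 0.795, and Hist1h4n at 0.98 ± 1.54 (SE), adjusted p = 0.928. The model takes 1 weight per assay, which gives members with few mRNA reads wide errors. When each assay had a spread of its own, an alternative added after seeing the data, Hist1h1c and Hist1h4j were called lower beside H2afx.

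Footprints of the replication-dependent genes changed in a few members, in both directions. Of the 56 tested, 5 rose and 3 fell (limma, adjusted p under 0.05), against 1.81% of the 9707 genes tested that rose and 1.28% that fell. Their median log2 fold change was −0.01, beside 0.00 over all genes, and 0 of the 4 variants passed with limma (1 at an unadjusted p under 0.05), while edgeR on recovered reads called H3f3b lower. Summed over the class, footprints in sgNAT10 over WT had ratios of means of 1.04 for H1, 1.11 for H2A, 1.00 for H2B, 1.20 for H3 and 1.09 for H4. The calls were not stable to the libraries: with any 1 of the 4 Ribo-seq libraries left out, 0 of 60 histone genes were called (smallest adjusted p 0.0701; 18 to 24 at an unadjusted p under 0.05), beside 0 to 9 genes of the whole table. Without a trend in the fit, 1 rose (Hist1h2ad) and 1 fell (Hist4h4). The authors' deposited table, for which shares over all genes were not counted, listed 7 histone genes as higher and 10 as lower in Ribo-seq, among them the 8 called here.

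Hist1h1a and Hist4h4 had almost no footprints left in sgNAT10. Hist1h1a encodes a linker histone, and its footprints read 90.3 and 114 FPKM in WT and 0 and 2.35 in sgNAT10, from 211 and 259 reads in WT and 0 and 3 reads in sgNAT10. Hist4h4 encodes histone H4, and its footprints read 37.7 and 38.5 FPKM in WT and 0.0978 and 0 in sgNAT10, from 340 and 338 reads in WT and 1 and 0 in sgNAT10. The WT libraries were alike and the edited ones at or near 0 in both genes. Per read sequenced, WT had 134 times the sgNAT10 rate for Hist1h1a (95% exact interval 45.7 to 654) and 582 times for Hist4h4 (95% exact interval 104 to 23022), where the intervals (Clopper-Pearson, over both libraries of a genotype) cover counting error only. The log2 fold change on the log2(FPKM + 1) scale was -5.81 ± 0.57 (SE), adjusted p = 0.00914, for Hist1h1a and -5.22 ± 0.32 (SE), adjusted p = 0.00269, for Hist4h4. Both had values in the Ribo-seq table and not in the sgNAT10 mRNA comparison, and in the sgMyc set neither exceeded 0.17 FPKM in any library.

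The 250 bases before the start site of these genes are shown, since they are the members whose footprints were nearly lost, with capitals marking matches to the motifs named further on (RefSeq, GRCm38.p6). Hist1h1a lies on the plus strand, with the window at chr13:23763418-23763667, and Hist4h4 on the minus strand, at chr6:136804432-136804681, away from the large clusters.
Hist1h1a: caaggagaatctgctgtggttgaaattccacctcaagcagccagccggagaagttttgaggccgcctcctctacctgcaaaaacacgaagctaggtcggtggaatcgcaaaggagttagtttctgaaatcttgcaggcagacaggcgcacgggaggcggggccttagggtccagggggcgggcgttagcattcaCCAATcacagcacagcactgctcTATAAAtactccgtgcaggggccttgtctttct
Hist4h4: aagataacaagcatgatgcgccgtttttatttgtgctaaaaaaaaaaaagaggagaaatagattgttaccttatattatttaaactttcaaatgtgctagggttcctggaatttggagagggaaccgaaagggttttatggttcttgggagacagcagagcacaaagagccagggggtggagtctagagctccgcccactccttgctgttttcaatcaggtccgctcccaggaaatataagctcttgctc

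The 2 members with the largest rise share a promoter region. Hist1h2bf and Hist1h2ad, an H2B and an H2A gene, are transcribed away from each other, with 173 bases between their start sites. Footprints of Hist1h2ad, at 15 and 18.8 FPKM in WT and 113 and 122 in sgNAT10, came from 60 WT and 350 sgNAT10 reads, with the genotypes apart (log2 fold change 2.73 ± 0.19 (SE), adjusted p = 0.00329). Footprints of Hist1h2bf, at 0.688 and 0 FPKM in WT and 31 and 11.3 in sgNAT10, rested on 1 read in WT and 60 in sgNAT10 (log2 fold change 3.93 ± 0.57 (SE), adjusted p = 0.0268). Per read sequenced the sgNAT10 rate of Hist1h2bf was 69.9 times that of WT, with a 95% exact interval of 12.1 to 2806 for counting error only. Their mRNA was under the filter, with Hist1h2ad at 0.319 and 0.571 FPKM in WT and 1.42 and 1.3 in sgNAT10 and Hist1h2bf at 0.297 and 0 FPKM in WT and 1.13 and 1.34 in sgNAT10, higher in the edited libraries of both genes. The authors' deposited table listed Hist1h2bf mRNA as higher, with an adjusted p of 0.0399.

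Hist1h2bk, an H2B gene of the same chromosome, fell in footprints and in mRNA. Its footprints read 57.3 and 31.5 FPKM in WT and 2.94 and 4.87 in sgNAT10, from 132 reads in WT and 9 in sgNAT10 (log2 fold change -3.18 ± 0.38 (SE), adjusted p = 0.0168). Its divergent neighbour Hist1h2ah read 172 and 268 FPKM of footprints in WT and 256 and 215 in sgNAT10, with overlapping genotypes and a log2 fold change of 0.12 ± 0.23 (SE). The bases between the start sites of these pairs are shown for comparison, since in one pair both members rose and in the other only the H2B member was called (plus strand, GRCm38.p6, with the same motifs in capitals). They lie at chr13:23574208-23574380, where Hist1h2bf starts to the left and Hist1h2ad to the right, and at chr13:22035644-22035820, where Hist1h2ah starts to the left and Hist1h2bk to the right.
Hist1h2bf and Hist1h2ad: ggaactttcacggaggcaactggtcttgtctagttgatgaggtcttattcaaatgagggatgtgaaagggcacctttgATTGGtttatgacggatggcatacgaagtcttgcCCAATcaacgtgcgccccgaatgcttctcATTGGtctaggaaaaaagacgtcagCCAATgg
Hist1h2ah and Hist1h2bk: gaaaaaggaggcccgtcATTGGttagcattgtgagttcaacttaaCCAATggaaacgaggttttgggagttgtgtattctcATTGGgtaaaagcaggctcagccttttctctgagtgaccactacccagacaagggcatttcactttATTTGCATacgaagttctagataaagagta

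The remaining 3 called members had moderate rises in abundant footprints. Hist1h1b read 654 and 569 FPKM in WT and 967 and 1141 in sgNAT10 (log2 fold change 0.78 ± 0.13 (SE), adjusted p = 0.04). It was the H1 gene with the highest footprint FPKM after the edit. In recovered reads Hist1h1e was above it, at 3155 and 1507 in sgNAT10 against 2566 and 1463 for Hist1h1b. Hist1h2ai, an H2A gene, read 217 and 196 FPKM in WT and 396 and 473 in sgNAT10 (log2 fold change 1.06 ± 0.14 (SE), adjusted p = 0.022). Hist1h3g, an H3 gene, read 118 and 130.3 FPKM in WT and 265 and 244 in sgNAT10 (log2 fold change 1.03 ± 0.13 (SE), adjusted p = 0.0215). Both edited libraries exceeded both WT libraries in each. Hist1h1b and Hist1h2ai also rose in mRNA, by log2 fold changes of 1.14 and 0.85, and Hist1h3g stood at 0.43 with an adjusted p of 0.0677.

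**Figure D3:**
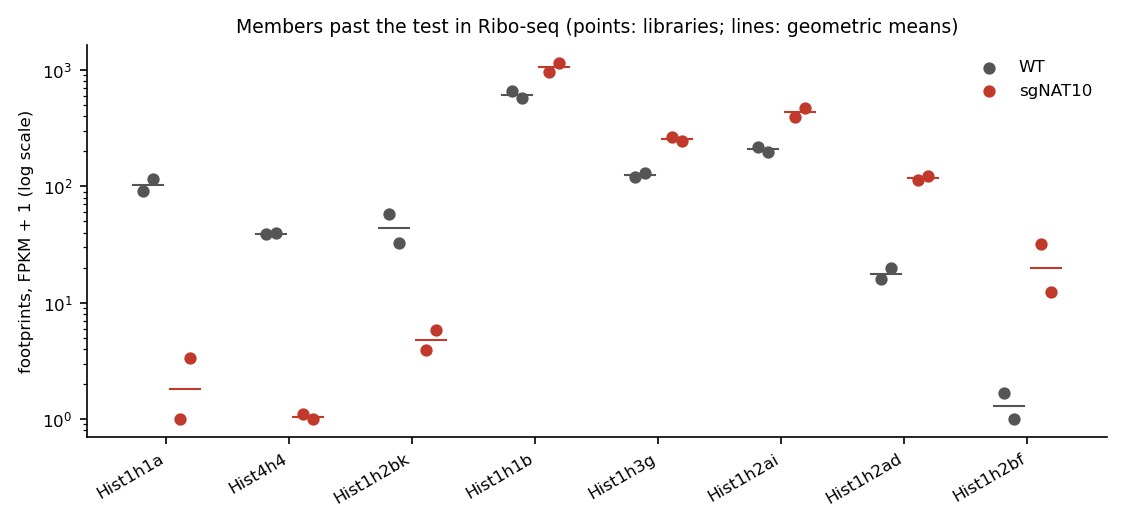
Footprints of the 8 histone genes past the test in Ribo-seq, as FPKM + 1 on a log scale, with points for libraries (grey WT, red sgNAT10) and lines for geometric means of 2 libraries. Hist1h1a and Hist4h4 drop to 2.35 FPKM or less in sgNAT10, and Hist1h2bf rises from 0.688 FPKM or less to 11.3 and 31 FPKM.

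RefSeq positions gave 11 divergent H2A and H2B pairs with start sites at most 500 bases apart, and 8 had both members in the Ribo-seq test. The 2 members had footprint log2 fold changes of the same sign in 2 of the 8: the rise of Hist1h2bf and Hist1h2ad, and the pair of Hist1h2ac (-0.64) and Hist1h2bc (-0.44), neither of them called. In 3 of the 6 with opposite signs a member's change was smaller than its SE, so its sign is undetermined. In the pair of Hist1h2bl (-0.93) and Hist1h2ai (1.06) the signs were opposite, and only Hist1h2ai passed. Across the 42 replication-dependent genes tested in both assays, the mRNA and footprint log2 fold changes had a Pearson r of 0.44 and a Spearman rho of 0.29, and 24 had the same sign. This is a description across genes that share libraries and near-identical sequences.

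**Figure D4:**
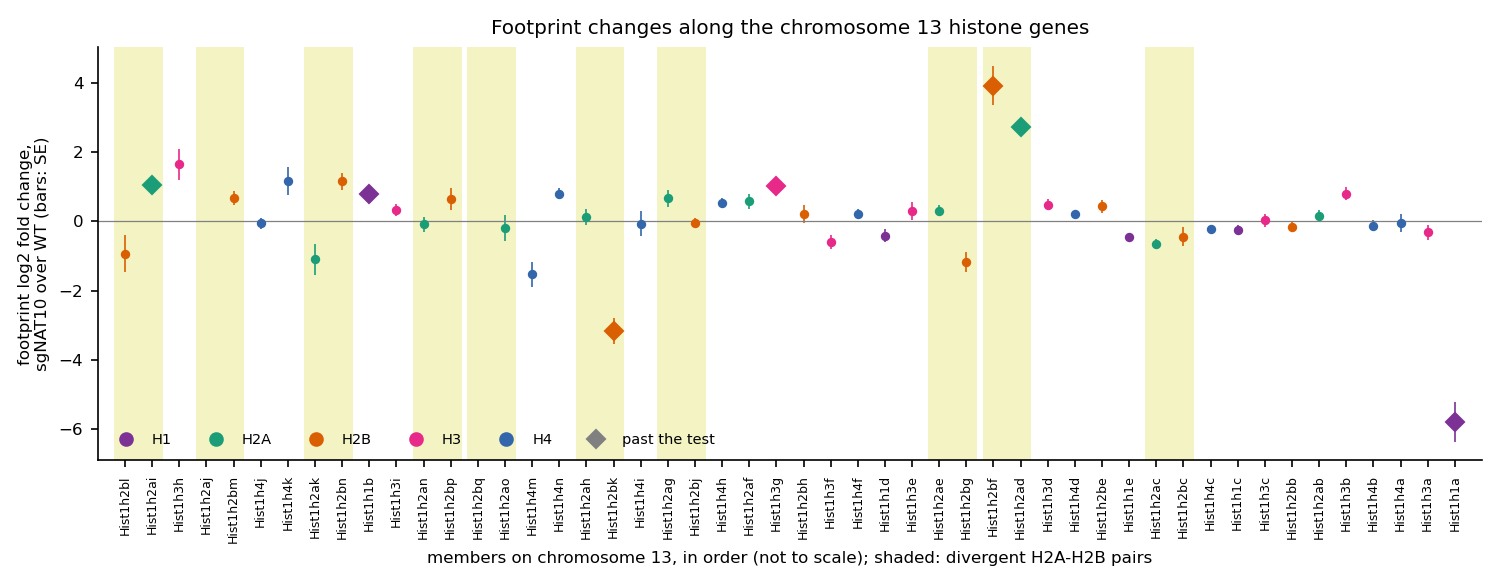
Footprint log2 fold change of sgNAT10 over WT (vertical; bars are SE) of the histone genes on chromosome 13 in their order along it (horizontal, not to scale), coloured by class, with diamonds for genes past the test and shading for divergent pairs. Hist1h2bf and Hist1h2ad stand together at 3.93 and 2.73, Hist1h2bk stands alone at −3.18 next to Hist1h2ah at 0.12, and Hist1h1a is at −5.81.

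Promoter motifs were counted in the 250 bases before the start site, on both strands, for 55 windows of 54 replication-dependent genes and for 32851 windows of all genes. The TATA box TATAAA was found in 47.3% of the histone windows and 12.4% of all, and the CCAAT box CCAAT in 81.8% and 33.8%. In divergent pairs the start sites lie under 250 bases apart, so 19 of the 55 windows run into the neighbouring gene. With those windows ended at the neighbour's start site, the TATA box was in 41.8%, the CCAAT box in 81.8% and the octamer in 6 of 14 H2B and 5 of 15 H2A windows. The octamer ATTTGCAT, known from H2B promoters, was found in 6 of 14 H2B windows and 6 of 15 H2A windows, which overlap in divergent pairs, and in 1.6% of all. The H1 box AAACACA was found in 4 of 5 H1 windows and 6.25% of all. Hist1h1a was the H1 gene without those letters. The E-box CACGTG, which Myc binds, was in none of the 55 windows and in 6.02% of all, and H2afz had one. In the region between Hist1h2bf and Hist1h2ad a script found 4 matches of CCAAT and none of the others. Between Hist1h2ah and Hist1h2bk it found 3 of CCAAT and 1 of the octamer, and in the window of Hist4h4 none.

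In the sgMyc set the replication-dependent genes were lower in mRNA than in the other set, with sums of 66.6 to 68.5 FPKM in WT against 215 and 231 FPKM, in tables normalized separately. Of the 62 histone genes there, 53 passed edgeR's filter on low counts, 49 of them replication-dependent. Of the 49, 3 rose and 5 fell (edgeR, adjusted p under 0.05), against 7.11% of the 16794 genes tested that rose and 8.86% that fell. Those that rose belong to H2A and H2B, and those that fell to H2A, H2B and H3. None of the 4 variants passed with edgeR or with DESeq2 (2 at an unadjusted p under 0.05), nor did an H1 or H4 gene with edgeR, while 22 of the 53 were at an unadjusted p under 0.05. The 5 that fell did so in all 3 sgMyc libraries, and of the 3 that rose, Hist1h2bc did so in all 3 and the other two mainly in replicates 1 and 2.

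Hist1h3c, an H3 gene, read 5.44, 5.92 and 6.16 FPKM in WT and 1.3, 1.06 and 1.47 in sgMyc (log2 fold change -2.18 ± 0.21 (SE), adjusted p = 0.00229). The divergent pair of Hist1h2ag and Hist1h2bj fell together. Hist1h2ag read 2.52, 2.79 and 3.82 FPKM in WT and 0.592, 0.486 and 0.753 in sgMyc (log2 fold change -2.28 ± 0.30 (SE), adjusted p = 0.00599), and Hist1h2bj read 3.54, 3.08 and 3.08 FPKM in WT and 0.866, 0.802 and 0.739 in sgMyc (log2 fold change -1.97 ± 0.22 (SE), adjusted p = 0.00367). In these 3 genes every sgMyc library lay below every WT library. Hist1h3h read 1.58, 1.34 and 2.33 FPKM in WT and 0.511, 0.857 and 0.551 in sgMyc and Hist1h2bl 0.552, 0.647 and 0.412 FPKM in WT and 0.195, 0.0889 and 0.101 in sgMyc, with adjusted p of 0.0492 and 0.0459 close to the threshold. Of those that rose, Hist1h2bc read 2.43, 2.62 and 2.65 FPKM in WT and 16.1, 15.7 and 9.13 in sgMyc (log2 fold change 2.40 ± 0.23 (SE), adjusted p = 0.00246), above WT in all 3 libraries. Its divergent partner Hist1h2ac read 0.134, 0.109 and 0.0596 FPKM in WT and 1.36, 1.51 and 0.163 in sgMyc (adjusted p = 0.0461). Hist1h2bg read 2.49, 3.52 and 2.83 FPKM in WT and 22.4, 23 and 4.3 in sgMyc (adjusted p = 0.0406). In both of these sgMyc replicate 3 lay near WT.

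Replicate 3 of sgMyc also stood apart in other members. Hist1h1c, the H1 gene with the most mRNA in this set, read 8.89, 9.39 and 7.92 FPKM in WT and 66.9, 71 and 9.46 in sgMyc, a log2 fold change of 2.48 ± 0.68 (SE), adjusted p = 0.0562, with replicate 3 at the WT level and the other two far above it. Hist1h2bq read 0.462, 0.413 and 0.548 FPKM in WT and 4.08, 3.83 and 0.317 in sgMyc. H3f3b read 223, 231 and 226 FPKM in WT and 316, 317 and 162 in sgMyc and H2afz 191, 203 and 191 FPKM in WT and 128, 128 and 196 in sgMyc, with replicates 1 and 2 on one side of WT and replicate 3 at or beyond its other side. Without sgMyc replicate 3, edgeR called 16 replication-dependent genes higher and 6 lower of 52, against 26.6% and 26.9% of all 17485 genes tested, and all 4 variants (H2afx, H3f3a and H3f3b higher, H2afz lower). In 14 of those 16, replicate 3 lay nearer the WT mean than the mean of replicates 1 and 2, and in 5 of the 6 it lay below the WT range. Hist1h1c then had a log2 fold change of 3.01 ± 0.07 (SE), adjusted p = 2.3e-09. Leaving out any other library of the set left 1 histone gene called higher and 3 lower, and with the replicate number as a block the counts were the same. The whole table then held 680 to 1225 calls with a library left out and 1082 with the block, against 2682 in the main fit.

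**Figure D5:**
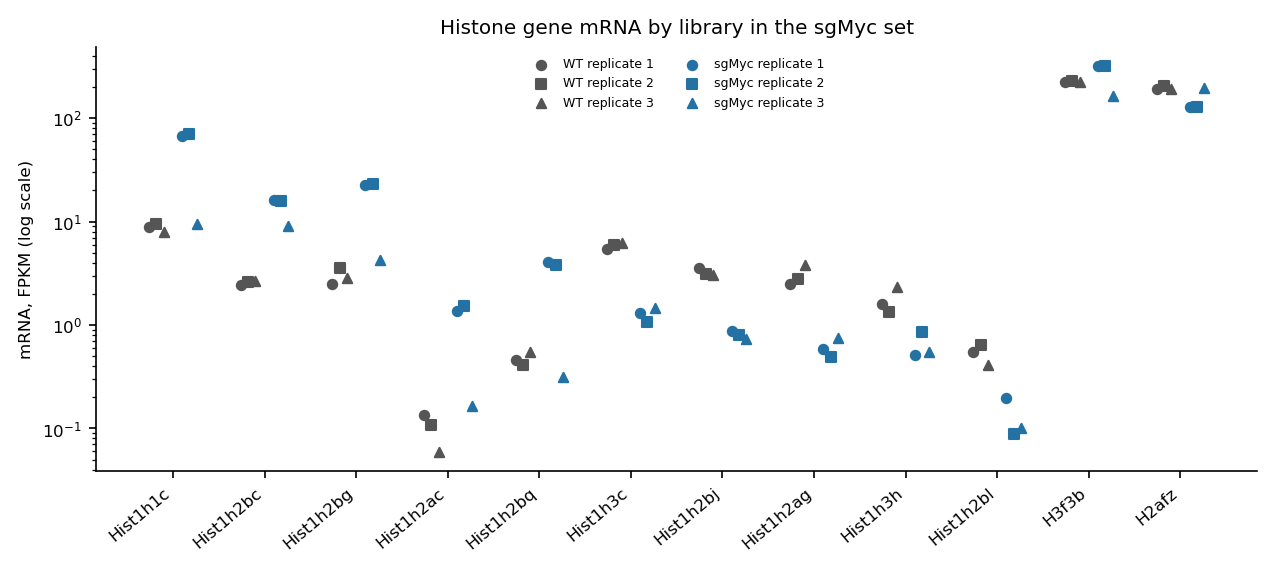
FPKM (log scale) of 12 histone genes in the 6 libraries of the sgMyc set, grey for WT and blue for sgMyc, with a symbol per replicate. In Hist1h1c, Hist1h2bg, Hist1h2ac, Hist1h2bq, H3f3b and H2afz, sgMyc replicate 3 (triangle) is away from replicates 1 and 2, whereas in Hist1h3c, Hist1h2bj, Hist1h2ag, Hist1h3h and Hist1h2bl the 3 sgMyc libraries are together below WT.

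The effects of the 2 edits on histone mRNA were compared as sgMyc over its WT minus sgNAT10 over its WT, in 1 limma model of both sets. Myc mRNA was lower than WT in both edited lines. In the sgNAT10 set it read 115 and 117 FPKM in WT and 40 and 40.9 in sgNAT10. Nat10 mRNA in the sgMyc set read 5.01, 4.86 and 5.13 FPKM in WT and 3.52, 3.31 and 6.27 in sgMyc. Of 37 replication-dependent genes tested, 10 were lower in sgMyc relative to sgNAT10 and 1 was higher, against 13.5% and 6.63% of the 11773 genes tested. H2afx had a difference of -1.72 ± 0.15 (SE), adjusted p = 0.000204: it rose in sgNAT10, while in sgMyc it read 62.7, 60.2 and 50.2 FPKM in WT and 66.1, 67.8 and 76.7 in sgMyc. Hist1h3c, which fell in sgMyc and read 7.39 and 6.14 FPKM in WT and 7.65 and 7.38 in sgNAT10, had a difference of -1.73 ± 0.14 (SE), adjusted p = 0.00015. Hist1h4k differed by -1.67 ± 0.39 (SE), adjusted p = 0.0196, having risen in sgNAT10 and read 1.4, 0.945 and 0.413 FPKM in WT and 1.45, 0.772 and 1.79 in sgMyc. Hist1h2bc was the gene that rose more in sgMyc, by 1.15 ± 0.30 (SE), adjusted p = 0.0313. Leaving out any library moved the lower calls among all tested histone genes from 11 to between 6 and 17, the 17 being without sgMyc replicate 3. The higher call was lost (0) without any other library, and 7 were called without that one. Across 38 replication-dependent genes tested in both sets, the 2 log2 fold changes had a Pearson r of 0.49 and a Spearman rho of 0.52, as a description across genes.

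Of the factors that process histone mRNA, 16 of 22 tested fell and 1 rose in sgNAT10 mRNA, against 29.6% and 33.7% of all genes tested. Their median log2 fold change was −0.25. The largest falls were in Lsm1 (−0.99), a subunit of the ring that starts decay of histone mRNA, Mif4gd (−0.89), which links Slbp to translation initiation, and Eri1 (−0.82), the nuclease that trims the stem-loop. Nelfe rose (0.43). Slbp itself read 10.03 and 10.6 FPKM in WT and 9.41 and 9.43 in sgNAT10 and was not called. In footprints 0 of the 22 passed with limma (8 at an unadjusted p under 0.05, and 4 called by edgeR on recovered reads), with Slbp at 39.9 and 48.6 FPKM in WT and 36.7 and 35.9 in sgNAT10. In sgMyc 5 of 23 fell and none rose, against 8.86% and 7.11% of all genes tested, led by Ncbp1 (−1.02), Casp8ap2 (−0.94) and Eri1 (−0.83). Slbp fell as well (−0.40), from 23.6, 23.9 and 23.6 FPKM in WT to 18.8, 18.1 and 17 in sgMyc. Without sgMyc replicate 3, 14 of the 23 fell, the 5 among them, and 2 rose, against 26.9% and 26.6% of all genes tested.

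Of the histone chaperones, 9 of 28 rose and 9 fell in sgNAT10 mRNA, near the shares of all genes tested (33.7% and 29.6%). The falls were led by Npm1 (−0.87), Anp32e (−0.42), which removes H2A.Z, and Nap1l1 (−0.42), which carries H2A and H2B. The rises were led by Hjurp (0.36), which places the centromeric H3 variant, Dek (0.33) and Rbbp7 (0.33). In sgMyc Daxx, which deposits H3.3, rose (1.60) and Anp32e (−0.57) and Dek (−0.32) fell, of 28 tested. Of all genes tested there, 7.11% rose and 8.86% fell. Without sgMyc replicate 3, 5 chaperones rose and 15 fell, Daxx, Anp32e and Dek among them, against 26.6% and 26.9% of all genes tested. Of 30 genes of S phase, 13 rose and 9 fell in sgNAT10 mRNA, with a median of 0.09, against 33.7% and 29.6% of all genes tested. E2f1 (0.91) and Cdc45 (0.56) were among those that rose, and Cdt1 (−0.80), Ung (−0.77) and Ccne2 (−0.55) fell most. In sgMyc 5 fell and none rose, against 8.86% and 7.11% of all genes tested, led by Cdk2 (−1.83), Ccne2 (−0.67) and Pcna (−0.40). Without sgMyc replicate 3, 27 of the 30 fell, the 5 among them, and 2 rose, against 26.9% and 26.6% of all genes tested. In footprints limma called 0 of 27 chaperones and 0 of 30 genes of S phase (5 and 7 at an unadjusted p under 0.05), and edgeR on recovered reads called 4 and 2. Of the other variant histones, H1f0, H2afj and H2afv rose in sgNAT10 mRNA (0.38, 0.49 and 0.31) and 0 of 5 were called in footprints with limma or edgeR (0 at an unadjusted p under 0.05). In sgMyc H2afy2 fell (−3.66) and H1fx, with under 0.5 FPKM in WT, was listed at 0 in all 3 edited libraries. H1fx was also at 0 in both sgNAT10 mRNA libraries, beside 0.45 and 0.582 FPKM in their WT. Without sgMyc replicate 3, 3 of 8 of these variants rose and 4 fell. These lists are given by counts beside the background shares above.

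In the authors' deposited table of acetylated RNA peaks, 11 of 1358 peaks lay in 10 of the histone genes, 10 of them classed in coding sequence and 1 as exon. Their fold enrichment of precipitate over input, the authors' value, ran from 1.42 to 3.11 with a median of 2.01, against 1.77 over all peaks. The highest was in Hist1h2bk (3.11, chr13:22035929-22036048 on mm10), and Hist1h2ao followed (2.87). Hist1h2bk was 1 of 3 members called lower in footprints, and the others, Hist1h1a and Hist4h4, held no peak. Hist1h1c held 2 peaks, and Hist1h4d and Hist2h2bb, with the most footprints of H4 and H2B, held 1 each. The authors' log2 difference between genotypes was above 0 in 9 of the 11 peaks, against 56.8% of all peaks, with a median of 0.544 and 0.122 over all. Which genotype is on top of that difference is not stated, and with 1 precipitate a genotype it has no replicate check.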

How the data were processed

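Per the file headers, the authors deposited FPKM per gene and library for mRNA and Ribo-seq of sgNAT10, with their own log2 fold changes and p-values, and counts with FPKM for the sgMyc set. The authors' acRIP table gives a fold ratio of enrichment, a log2 difference and scores (log10 p-values and FDR). Per the submitters' processing notes, FastQC, Trim Galore, Bowtie2, featureCounts and mm10 were used, with no versions. The members and gene lists were chosen with earlier results of these data known.

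From these values, limma 3.58.1 (eBayes with a trend, in R 4.3.3) compared log2(FPKM + 1), keeping genes whose mean reached 1 FPKM. The footprint to mRNA ratio was the genotype by assay interaction, with 1 weight per assay (6.571 for mRNA and 0.1522 for Ribo-seq), because Ribo-seq replicates spread more. Counts of the sgMyc set were tested with edgeR 4.0.16 (filterByExpr, TMM, quasi-likelihood), with DESeq2 1.42.0 as an alternative. The difference between edits was an interaction in limma. Adjusted p-values (Benjamini-Hochberg, all genes tested, threshold 0.05) measure the spread between these samples, which may be technical. The mRNA, Ribo-seq, ratio and sgMyc fits were tested on simulated data, but the difference between edits was not. The simulated FPKM genes had a mean of at least 5 FPKM. Only 12 replication-dependent genes reached that mean in sgNAT10-set mRNA, so the simulation does not cover most of them there.

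Whole reads were recovered from ratios of FPKM between libraries (tolerance 1e-09) for 99.83% of genes in mRNA and 99.98% in Ribo-seq, and gave the depth. For 48 of the 58 histone genes in both tables they matched directly, and for 10 a lost common divisor was restored. Genes were named by rule: the leading member of each class per assay, the variants, members called in footprints or the ratio, the 3 largest changes each way, and up to 3 called genes each way of each other list, of which one is not reported here. Hist1h2ah, Hist1h1c, Hist1h2bq and the RNAs without a tail given by library were chosen after their values were seen. Positions and promoters are RefSeq's (GRCm38.p6). Of the 65 genes, 64 matched a position. Motif windows end at the start site.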

Additional observations from a re-analysis of the deposited data

Results flagged for a closer look

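The effect on H2afx differed between its mRNA and its footprints, by an interaction term, with a log2 difference of −2.22 in the footprint to mRNA ratio. The following histone genes had effects on mRNA that differed between the edits by an interaction term (sgMyc minus sgNAT10, log2). H2afx differed by −1.72. The H3 genes Hist1h3c and Hist1h3h differed by −1.73 and −1.21. The H4 genes Hist1h4k, Hist1h4f and Hist1h4j differed by −1.67, −1.45 and −0.87. The H2A genes Hist1h2ag and Hist1h2ae differed by −1.40 and −0.95. The H2B genes Hist1h2bj, Hist1h2bm and Hist1h2bl differed by −1.41, −1.10 and −0.91, and Hist1h2bc by 1.15. The sets have separate WT libraries and depths, and sgMyc replicate 3 stood apart.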

How the results depend on the processing

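No called histone gene changed sign under any alternative run. Groups of 2 and 3 libraries and the low mRNA depth of the replication-dependent genes limit every count. Over all alternatives the called genes kept their side of the threshold in 279 gene and setting combinations of sgNAT10 mRNA and lost it in 27, against 52 and 44 in Ribo-seq. Whole-table calls, in either direction, are given beside these counts because they moved too. A minimum mean of 5 FPKM left 8 histone genes up and 2 down in sgNAT10 mRNA (5096 of 7145 genes called, against 7431 of 11735 in the main fit). In the difference between edits it left 1 down (1645 of 7519, against 2368 of 11773). A pseudocount of 0.1 left 3 higher in Ribo-seq (210 of 9707 genes called, against 300 in the main fit) and 7 lower in the difference (2306 of 11773). Without a trend, 1 was higher and 1 lower in Ribo-seq (87 of 9707 genes called) and 0 lower in the ratio (0 of 9200), and the cause was not tested. edgeR on recovered reads called 6 lower in Ribo-seq (788 of 9994 genes called). A spread for each assay called 3 lower in the ratio (13 of 9200, against 3 in the main fit). In sgMyc, DESeq2 called 8 higher (3765 of 28738 genes called, against 2682 of 16794 in the main fit). No filter gave 1 higher and 3 lower (1926 of 28738), and limma on log2 FPKM 1 higher (1835 of 11907). Replicate numbers did not pair the samples (correlations of deviations from −0.0181 to 0.0245). The replicate block gave 1 higher and 3 lower in sgMyc (1082 of 16794 genes called) and changed no other count by over 1.5 times. Leaving out each library in turn gave 20 to 25 higher and 3 to 5 lower in sgNAT10 mRNA, 0 to 0 in Ribo-seq and 0 to 1 lower in the ratio. It gave 1 to 19 higher and 3 to 7 lower in sgMyc, and 0 to 7 higher and 6 to 17 lower in the difference. A lone library left in a group was assumed to vary like the others.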

Other observations

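Hist2h2aa1, an H2A gene of chromosome 3 with the same protein as Hist2h2aa2, is outside the 65 genes because it has no row in the sgNAT10 mRNA and Ribo-seq comparisons, yet it held an acetylated RNA peak in the authors' deposited table. Its fold enrichment of 9.03 exceeded the 1.42 to 3.11 of the 11 peaks in the histone genes and ranked 67 of 1358 peaks.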
